A study of Rattus norvegicus with 18 samples.

Results

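The creatine kinases and their partners in phosphagen transfer are represented here by 5 genes, Ckm, Ckb, Ckmt2, Slc6a8 and Ak1, picked by symbol from the 17303 rows of the deposited expression table. All 5 symbols were found, and all 5 passed the filter on low values, which kept 10478 rows with at least 1 FPKM (fragments scaled by transcript length and by mapped fragments) in at least 3 libraries. Polyadenylated RNA had been sequenced from ventricular cardiomyocytes of Wistar rats killed on postnatal day 3. The 18 libraries formed 6 groups of 3: phenylephrine (PE) at 10 µM, PE with 10 µM Senexin A, PE with 50 µM Senexin A, vehicle, 10 µM Senexin A and 50 µM Senexin A. PE is an α1-adrenergic agonist that makes cultured cardiomyocytes grow, and Senexin A inhibits CDK8, a kinase that works with the Mediator complex in transcription. All groups shared 48 h in AraC, a drug that kills dividing cells, then 24 h without serum and 48 h of treatment with the medium renewed at 24 h. No gene was altered in any group, and the cultures are neonatal cells kept outside the heart. The labels do not say whether same-numbered libraries share a preparation of cells, so the p-values measure the spread between these libraries, which may be technical.

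Creatine kinases move a high-energy phosphate between ATP and creatine, so that phosphocreatine buffers and carries energy from mitochondria to the myofibrils and ion pumps. Cytosolic creatine kinase is a dimer in which each subunit is of the muscle type (Ckm) or the brain type (Ckb). The sarcomeric mitochondrial enzyme (Ckmt2) loads creatine where ATP leaves the mitochondrion. Heart muscle makes little creatine of its own and imports it through the transporter Slc6a8, while adenylate kinase 1 (Ak1) recovers ATP from ADP and releases AMP. In rodent heart Ckb is the subunit of early development, Ckm and Ckmt2 increase with maturation, and a larger share of Ckb is a known feature of the hypertrophied heart.

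The deposited table placed the 5 genes, in rn5 coordinates, as follows. Ckm was at chromosome 1, from 81587856 to 81598113; Ckb was at chromosome 6, from 144270900 to 144273776. Ckmt2 was at chromosome 2, from 40627923 to 40657402, and Ak1 at chromosome 3, from 16995976 to 17002963. Slc6a8 was listed on chromosome 1, from 152879305 to 152888609, whereas RefSeq places it on chromosome X in GRCr8. The 11 other rows within 200 kb of it in the deposited coordinates are also on chromosome X in GRCr8. No other row of the table overlapped any of these 5 loci. Each value covers a whole gene, exons joined, and no transcript isoform was separated.

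The 250 bases before the transcription start are shown for the 3 creatine kinases, because their relative levels carry the main result and the windows differ in known promoter motifs. The sequences are RefSeq's, in GRCr8, written 5′ to 3′ on the gene's strand. Capitals mark matches, on either strand, to the E-box CANNTG, to TATAAA, to the CCAAT box, to the GC box GGGCGG and to the MEF2 site.
Ckm, chr1:88189211-88189460, plus strand: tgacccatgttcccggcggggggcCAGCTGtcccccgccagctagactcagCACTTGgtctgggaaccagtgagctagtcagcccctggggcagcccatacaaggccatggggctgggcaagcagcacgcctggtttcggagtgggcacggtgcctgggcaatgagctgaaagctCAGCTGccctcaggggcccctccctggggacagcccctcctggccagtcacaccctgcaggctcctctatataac
Ckb, chr6:136553465-136553714, minus strand: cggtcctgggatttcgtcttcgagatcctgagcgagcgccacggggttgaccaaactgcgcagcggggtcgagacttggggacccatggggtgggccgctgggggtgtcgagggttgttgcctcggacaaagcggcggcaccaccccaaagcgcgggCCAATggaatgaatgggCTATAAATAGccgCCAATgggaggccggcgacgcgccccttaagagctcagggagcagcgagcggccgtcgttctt
Ckmt2, chr2:24845512-24845761, minus strand: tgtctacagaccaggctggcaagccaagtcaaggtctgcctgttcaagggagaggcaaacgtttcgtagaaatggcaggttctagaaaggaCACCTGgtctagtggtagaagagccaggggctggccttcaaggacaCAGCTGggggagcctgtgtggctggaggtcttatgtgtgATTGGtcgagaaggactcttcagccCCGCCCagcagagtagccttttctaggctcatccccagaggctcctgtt
The Ckm window held 3 E-boxes, a motif bound by helix-loop-helix factors, the nearest ending 70 bases before the start. Only the exact letters TATAAA were searched, so the similar tatataa near the end of the Ckm window stays in lower case. The Ckb window held no E-box. It had a CTATAAATAG match to the MEF2 site, which contains the TATAAA and ends 67 bases before the start, with a CCAAT box on each side of it. The Ckmt2 window held 2 E-boxes, 1 CCAAT box and 1 GC box, the last pair on the opposite strand. The Slc6a8 window, chrX:156535767-156536016 in GRCr8, had 1 E-box and 1 GC box. E-box letters occur in 65.5% of the 33469 rat promoter windows of this length, CCAAT in 34.0%, GGGCGG in 30.5%, TATAAA in 12.9% and the MEF2 site in 2.96%. The ERR element TNAAGGTCA and the CArG box, found in 1.04% and 1.50% of windows, were in none of the 4. The motifs were picked with the sequences in view, and a match is a description of letters.

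Depth in reads cannot be read from FPKM, but the sizes of the lowest values placed the 18 libraries between 0.833 and 1.11 times the depth of the second vehicle library. FPKM sums ran from 610324 to 910958, with 810428 to 853958 in PE and 610324 to 660958 in vehicle libraries. Same-group libraries correlated at r = 0.994 to 0.997 across genes, and no library was a copy of another. The 7 cardiomyocyte markers summed to 14559 to 17809 FPKM in PE and 9710 to 11135 FPKM in vehicle libraries, and all 7 were detected in every library. The sums were 16244 to 19438 FPKM in PE with 10 µM Senexin A and 11846 to 14611 FPKM in PE with 50 µM. They were 13507 to 15694 FPKM in 10 µM alone and 9511 to 12891 FPKM in 50 µM alone. The markers did not move together. Pln alone had a lower mean in PE than in vehicle, 1076 against 1500 FPKM. In 50 µM alone Myh7 averaged 61.9 FPKM against 980 FPKM in vehicle, whereas Tnni3 averaged 2682 against 1550 FPKM.

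PE changed 3 of the 5 genes, all of them higher than in vehicle: Ckmt2 by 4.82-fold, Ckb by 2.23-fold and Ak1 by 1.43-fold. In that comparison 17.9% of all 10478 tested rows were higher and 30.6% were called in either direction. Calls throughout are limma adjusted p-values under 0.05, with Benjamini-Hochberg adjustment over all tested rows, and each change is a difference of log2(FPKM + 1) means, given with its standard error. Senexin A alone at 10 µM changed 2 of the 5, Ckm and Ak1, both higher than in vehicle, against 9.17% of rows called higher and 16.2% called. With the replicate number as a block, all 5 were called in that comparison, against 26.4% of rows. At 50 µM Senexin A alone changed 3, Ckm, Slc6a8 and Ak1, again all higher, where 30.5% of rows were higher and 60.7% were called. With PE present, 10 µM Senexin A changed 4 of the 5 relative to PE alone, all higher, against 9.13% of rows called higher and 17% called, and 50 µM changed 2, with Slc6a8 higher and Ckb lower, against 56.7%.

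**Figure D1:**
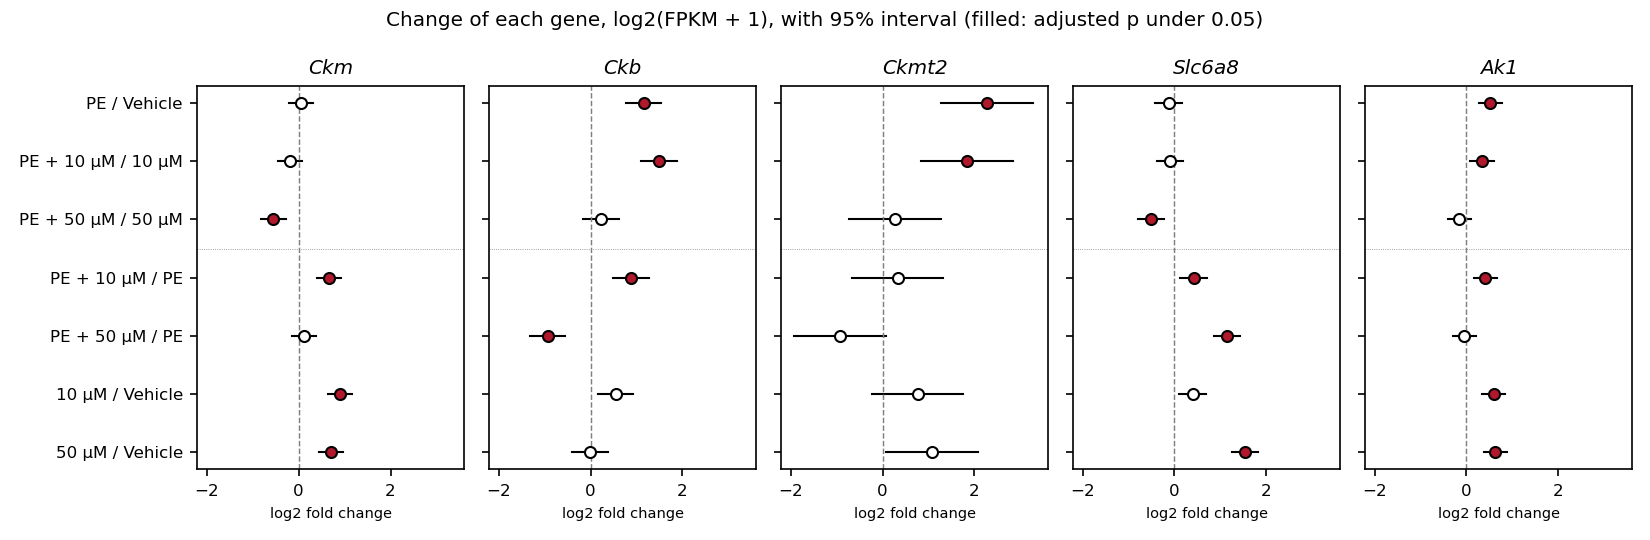
The x axis is the log2 fold change on the log2(FPKM + 1) scale, the rows are comparisons (first group over second), and the bars are 95% intervals from limma. Filled points passed an adjusted p of 0.05. In the top row Ckmt2, Ckb and Ak1 lie right of zero, and in the row of 50 µM Senexin A with PE over PE alone Ckb lies left of zero and Slc6a8 right of it. Ckm in the top row changes sign to the left of zero under quantile normalization or a shared FPKM sum.

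Ckb, the brain-type subunit, had the largest difference of the 5 genes between the Senexin A doses under PE. It measured 345, 275 and 225 FPKM in the PE libraries, 577, 527 and 442 FPKM in PE with 10 µM Senexin A, and 143, 178 and 119 FPKM in PE with 50 µM. It measured 143, 119 and 112 FPKM in vehicle, 203, 187 and 157 FPKM in 10 µM Senexin A, and 151, 125 and 99.3 FPKM in 50 µM Senexin A. Every PE library lay above every vehicle library, every library of PE with 10 µM lay above every PE library, and those of PE with 50 µM lay below all PE libraries and overlapped vehicle.

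Ckb rose by 1.15 ± 0.18 on the log2 scale in PE relative to vehicle (adjusted p = 0.000235). With 10 µM Senexin A it rose by a further 0.88 ± 0.18 relative to PE alone (adjusted p = 0.00413), while with 50 µM it fell by 0.93 ± 0.18 relative to PE alone (adjusted p = 0.00041). Between the doses under PE it was thus 1.81 ± 0.18 lower on the log2 scale at 50 µM than at 10 µM, adjusted p = 1.5e-06. The call for 10 µM relative to PE alone was lost without the 6 libraries numbered 2 (0.85, adjusted p = 0.0857). Senexin A alone at 10 µM gave a difference from vehicle of 0.54 ± 0.18 that missed the threshold (adjusted p = 0.0535) but passed with the replicate block (adjusted p = 0.000615). At 50 µM the means were 125 ± 26.1 FPKM in Senexin A and 125 ± 16.6 FPKM in vehicle (SD, n = 3 each), a log2 difference of -0.01 ± 0.18. From 10 to 50 µM without PE it fell by 0.55 ± 0.18 (adjusted p = 0.0193), a call lost without replicate 1 or 2 of 10 µM Senexin A or replicate 3 of 50 µM, with adjusted p of 0.0735, 0.0509 and 0.104. The 10 µM difference from vehicle was called in 8 of the 18 omissions of a single library, with adjusted p between 0.0418 and 0.17 over all 18. The 8 were replicates 1 and 3 of PE, 2 and 3 of PE with 50 µM, 1 of vehicle, 3 of 10 µM alone, and 1 and 3 of 50 µM alone.

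PE raised Ckb by 1.49 ± 0.18 among cells given 10 µM Senexin A (adjusted p = 2.5e-05), a comparison in which 3 of the 5 genes were called, all higher, against 18.9% of rows called higher and 32.5% called. Among cells given 50 µM the PE difference was 0.23 ± 0.18 and was not called (adjusted p = 0.461). Ordered by mean, the groups ran vehicle, 50 µM Senexin A, PE with 50 µM, 10 µM Senexin A, PE, and PE with 10 µM, and only the 2 highest groups were separated from their lower neighbour by a gap between libraries.

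**Figure D2:**
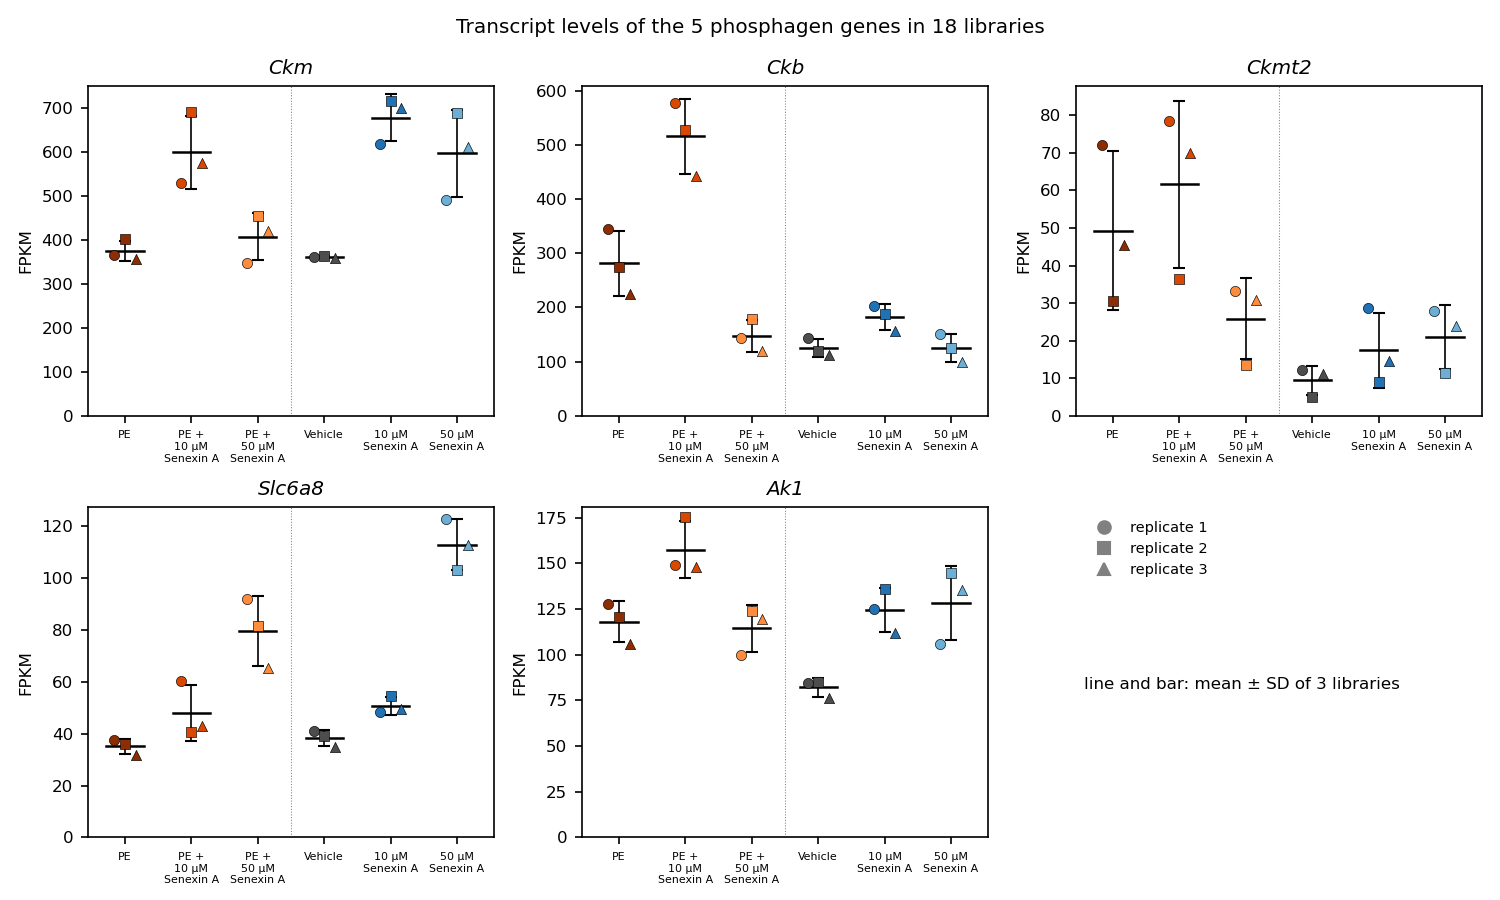
Each panel gives the FPKM of 1 gene (y axis, from 0) in the 18 libraries by group, the PE groups on the left of the dotted line; symbols mark the replicate number, and line and bar are the mean and SD of 3 libraries. Ckb is highest in PE with 10 µM Senexin A at 442 to 577 FPKM, Slc6a8 is highest in 50 µM Senexin A at 103 to 123 FPKM, and Ckmt2 is lowest in replicate 2 of every group.

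Ckm, the muscle-type subunit and the more abundant cytosolic subunit in 17 of 18 libraries, was higher with Senexin A alone at both doses and was not called in PE relative to vehicle. Its level was 366, 402 and 358 FPKM in PE, 531, 692 and 575 FPKM in PE with 10 µM Senexin A, and 348, 454 and 422 FPKM in PE with 50 µM. It was 361, 364 and 360 FPKM in vehicle, 618, 716 and 701 FPKM in 10 µM Senexin A, and 492, 690 and 611 FPKM in 50 µM Senexin A. All libraries of vehicle, PE and PE with 50 µM, at 348 to 454 FPKM, lay below all libraries of the other groups, at 492 to 716 FPKM.

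The PE difference for Ckm was 0.05 ± 0.12 (adjusted p = 0.782, 95% interval -0.21 to 0.32), and it turned to -0.35 when all libraries were scaled to the same FPKM sum. That scaling moves the median of all tested rows in this comparison to -0.37, and relative to that median Ckm stood at 0.02. Senexin A alone raised Ckm by 0.90 ± 0.12 at 10 µM (adjusted p = 0.000223) and by 0.71 ± 0.12 at 50 µM (adjusted p = 0.000129). Under PE, 10 µM raised it by 0.67 ± 0.12 relative to PE alone (adjusted p = 0.00211), and at 50 µM the difference from PE alone was 0.11 ± 0.12 (adjusted p = 0.462). Among cells given 10 µM, Ckm differed by -0.18 ± 0.12 between PE and no PE (adjusted p = 0.269) and was lower in 3 of 3 replicate numbers. That difference was called under quantile normalization (-0.45, adjusted p = 0.00383) and at a shared FPKM sum (-0.44, adjusted p = 0.00263, or -0.21 relative to the median of all rows). At 50 µM Ckm was 0.55 ± 0.12 lower with PE than without it (adjusted p = 0.0075). Only Ckm and Slc6a8 of the 5 were called in that comparison, both lower with PE, against 5.01% of rows called lower and 14.3% called. The count fell to 0 when only these 2 groups entered the fit, with adjusted p = 0.0629 for Ckm. Under PE, Ckm was also 0.55 ± 0.12 lower at 50 µM than at 10 µM (adjusted p = 0.00201), a comparison in which all 5 genes were called, against 41.2% of rows. Without PE the same step in dose gave -0.19 ± 0.12 (adjusted p = 0.208), called with the replicate block (adjusted p = 0.0453). In that comparison 2 of the 5 were called against 50.4% of rows, and 4 with the block against 59.2%.

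The proportion of the cytosolic subunits followed from these levels. Ckb made up 48.5%, 40.6% and 38.6% of the summed Ckm and Ckb FPKM in PE, 52.1%, 43.2% and 43.4% in PE with 10 µM Senexin A, and 29.2%, 28.2% and 22.0% in PE with 50 µM. The share was 28.5%, 24.6% and 23.7% in vehicle, 24.8%, 20.7% and 18.3% in 10 µM Senexin A, and 23.5%, 15.3% and 14.0% in 50 µM Senexin A. PE libraries with or without 10 µM Senexin A all exceeded every vehicle library, while PE with 50 µM overlapped vehicle. Relative to 50 µM alone, PE with 50 µM had a higher share within each replicate number. The means were 26.5% with PE and 17.6% without it, and the libraries of these groups overlapped. With 3 libraries a group, an exact two-sided permutation test cannot give a p below 0.1, so the share is described without one. It compares transcript levels per length and not enzyme.

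The summed FPKM of the 3 kinases moved differently from the share. It averaged 706 ± 77.5 in PE, 1177 ± 85.2 in PE with 10 µM Senexin A and 581 ± 60.9 in PE with 50 µM, and 496 ± 18.2 in vehicle, 878 ± 31.9 in 10 µM Senexin A and 744 ± 77.6 in 50 µM (SD, n = 3 each). The sum was highest with PE and 10 µM together, where both cytosolic subunits were high. Ckmt2 was a small part of it, between 1.00% and 9.20% over the 18 libraries, with means of 6.91% in PE and 1.89% in vehicle.

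**Figure D3:**
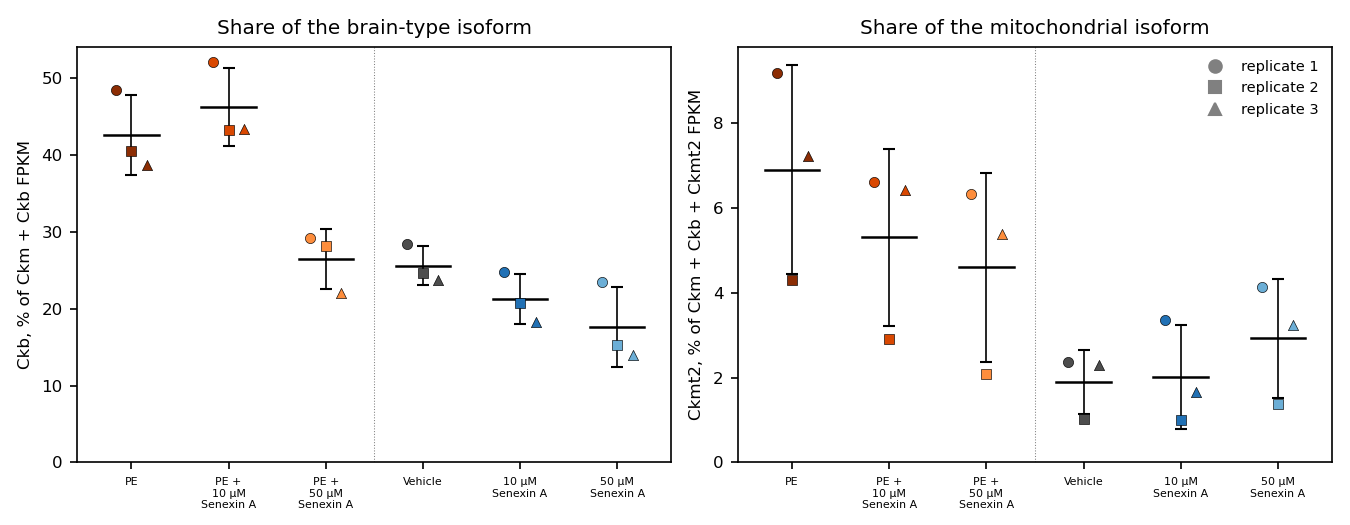
Left, Ckb as a percentage of the summed Ckm and Ckb FPKM; right, Ckmt2 as a percentage of the summed FPKM of the 3 kinases (y axes from 0), by group, with symbols for the replicate number and the mean and SD of 3 libraries. The Ckb share is 38.6% to 52.1% in PE and PE with 10 µM Senexin A and at most 29.2% in the other 4 groups.

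Ckmt2, the sarcomeric mitochondrial kinase, had the largest PE response of the 5 genes and the largest spread between libraries. It measured 72.1, 30.4 and 45.4 FPKM in PE, 78.5, 36.4 and 69.9 FPKM in PE with 10 µM Senexin A, and 33.2, 13.5 and 30.8 FPKM in PE with 50 µM. It measured 12.3, 4.97 and 11.1 FPKM in vehicle, 28.7, 9.15 and 14.5 FPKM in 10 µM Senexin A, and 27.9, 11.4 and 23.8 FPKM in 50 µM Senexin A. All PE libraries lay above all vehicle libraries, but each group overlapped its neighbours in the order of means.

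The spread followed the replicate number. Replicate 2 was the lowest library for Ckmt2 in 6 of 6 groups, and the difference between PE and vehicle taken within numbers was 2.46, 2.40 and 1.94 on the log2 scale. The same kind of regularity held for Ckb, lowest in replicate 3 of all 6 groups. Ckmt2 rose by 2.27 ± 0.47 in PE relative to vehicle (adjusted p = 0.00188) and by 1.83 ± 0.47 in PE with 10 µM relative to 10 µM Senexin A alone (adjusted p = 0.00741). At 50 µM the difference between cells with and without PE was 0.27 ± 0.47 and was not called (adjusted p = 0.769).

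Against PE alone, Ckmt2 differed by 0.33 ± 0.47 with 10 µM Senexin A (adjusted p = 0.676) and by -0.92 ± 0.47 with 50 µM (adjusted p = 0.106). With the replicate block the 50 µM difference passed (adjusted p = 1.6e-05), and it was negative in all 3 numbers, at -1.09, -1.12 and -0.55. Between the doses under PE it was 1.25 ± 0.47 lower at 50 µM than at 10 µM (adjusted p = 0.0427). This call was lost without replicate 3 of PE, replicate 1 or 3 of PE with 10 µM or replicate 2 of PE with 50 µM, with adjusted p of 0.0512, 0.139, 0.12 and 0.196. It was also lost with no filter (0.0759), under quantile normalization (0.0501) and at a shared FPKM sum (0.0675), so that 4 of the 5 genes were called there. Senexin A alone gave positive differences from vehicle, 0.76 ± 0.47 at 10 µM (adjusted p = 0.298) and 1.07 ± 0.47 at 50 µM (adjusted p = 0.0582). Both passed with the block, at adjusted p = 0.000514 and 2.6e-06, and so did the step in Senexin A dose without PE, 0.31 ± 0.47 (adjusted p = 0.601 without the block and 0.0494 with it). The 50 µM difference was also called in 5 of the 18 single-library omissions, those of replicate 2 of PE with 50 µM, 1 of vehicle, 1 and 2 of 10 µM alone and 2 of 50 µM alone, with adjusted p from 0.0225 to 0.0489.

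**Figure D4:**
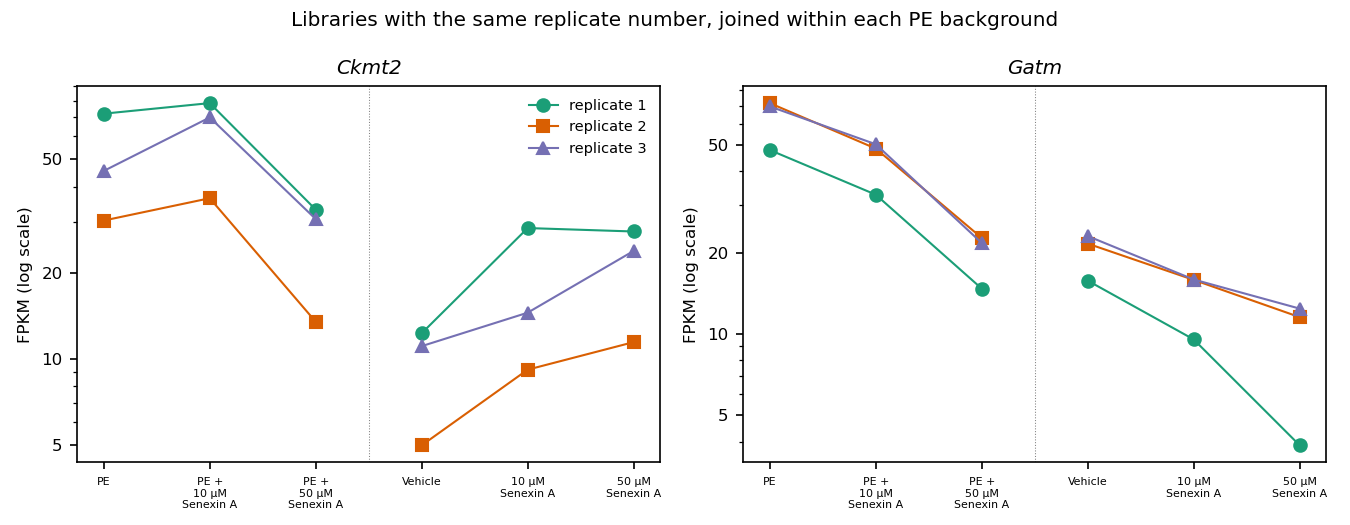
FPKM (log axis) of Ckmt2 and of Gatm, an enzyme of creatine synthesis, by group; lines join libraries with the same replicate number within the PE groups and within the other groups, with no meaning between points. Replicate 2 is the lowest Ckmt2 library in 6 of 6 groups, and replicate 1 the lowest Gatm library in 6 of 6.

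Slc6a8, the creatine transporter, responded to Senexin A in order of dose and not detectably to PE alone. It measured 37.5, 36.1 and 31.9 FPKM in PE, 60.1, 40.6 and 43.1 FPKM in PE with 10 µM Senexin A, and 91.9, 81.6 and 65.2 FPKM in PE with 50 µM. It measured 41.0, 39.1 and 35.0 FPKM in vehicle, 48.2, 54.5 and 49.3 FPKM in 10 µM Senexin A, and 123, 103 and 113 FPKM in 50 µM. The 2 groups with 50 µM stood above all other libraries and apart from each other, while PE, vehicle, PE with 10 µM and 10 µM alone, in that order of means, each overlapped the next.

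At 50 µM Slc6a8 rose by 1.53 ± 0.14 relative to vehicle (adjusted p = 1.5e-07) and, under PE, by 1.15 ± 0.14 relative to PE alone (adjusted p = 3.5e-06). It was 1.14 ± 0.14 higher at 50 µM than at 10 µM without PE (adjusted p = 6.2e-06) and 0.73 ± 0.14 higher with PE (adjusted p = 0.000507). At 10 µM the differences were smaller. Without PE the difference of 0.39 ± 0.14 from vehicle missed the threshold (adjusted p = 0.0615), and passed with the replicate block (adjusted p = 0.0124) and without replicate 1 of PE with 10 µM (0.0258) or replicate 3 of PE with 50 µM (0.0414). Under PE the 0.42 ± 0.14 relative to PE alone only just passed (adjusted p = 0.0469). Without replicate 1 of PE with 10 µM the difference was 0.25 (adjusted p = 0.227). Over all 18 single-library omissions adjusted p ran from 0.0298 to 0.227 and the call was lost in 12. These were any replicate of PE, vehicle or 10 µM alone, replicate 1 of PE with 10 µM, replicate 2 of PE with 50 µM and replicate 3 of 50 µM alone. The call was also lost with no filter (0.0734) and with only the compared groups fitted (0.0936). Among the scalings it was lost under quantile normalization (0.0753), median-ratio scaling (0.0534) and a shared FPKM sum (0.0946).

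PE and vehicle differed for Slc6a8 by -0.12 ± 0.14 (adjusted p = 0.53), and PE with 10 µM and 10 µM alone by -0.10 ± 0.14 (adjusted p = 0.607). At a shared FPKM sum the first of these was -0.51 (adjusted p = 0.0062), or -0.15 relative to the median of all rows. Among cells given 50 µM Slc6a8 was 0.51 ± 0.14 lower with PE than without it (adjusted p = 0.0203). That call was lost without replicate 3 of PE with 50 µM or replicate 1 or 3 of 50 µM alone, with adjusted p of 0.0924, 0.081 and 0.0509.

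Ak1, the cytosolic adenylate kinase, had its lowest level in vehicle. It measured 128, 121 and 106 FPKM in PE, 149, 176 and 148 FPKM in PE with 10 µM Senexin A, and 99.9, 124 and 119.5 FPKM in PE with 50 µM. It measured 84.8, 85.2 and 76.2 FPKM in vehicle, 125, 136 and 112 FPKM in 10 µM Senexin A, and 106, 145 and 135 FPKM in 50 µM. No library of the other 5 groups fell into the vehicle range, and PE with 10 µM lay above all others.

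Ak1 rose by 0.52 ± 0.12 in PE relative to vehicle (adjusted p = 0.00394). At a shared FPKM sum that difference was 0.12 and was not called (adjusted p = 0.241), although relative to the median of all rows it was 0.49. Senexin A alone raised it by 0.59 ± 0.12 at 10 µM (adjusted p = 0.00349) and by 0.63 ± 0.12 at 50 µM (adjusted p = 0.000261). Under PE it rose by 0.41 ± 0.12 with 10 µM relative to PE alone (adjusted p = 0.0264), a call lost without replicate 2 or 3 of PE or replicate 2 of PE with 10 µM, with adjusted p of 0.059, 0.12 and 0.112. With 50 µM and PE the difference from PE alone was -0.05 ± 0.12 (adjusted p = 0.765), and Ak1 was 0.46 ± 0.12 lower at 50 µM than at 10 µM (adjusted p = 0.00566). Cells given PE and 10 µM exceeded those given 10 µM alone by 0.34 ± 0.12 (adjusted p = 0.0392). That call was lost without replicate 1 or 2 of PE with 10 µM or replicate 1 or 3 of 10 µM alone, with adjusted p of 0.0546, 0.156, 0.0709 and 0.158, and at a shared FPKM sum the difference was 0.09.

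Whether the effect of Senexin A differed with PE was tested directly as an interaction, the PE difference at a dose minus the PE difference without Senexin A. At 10 µM none of the 5 genes was called, where 0.305% of rows were, and none was called with the block. At 50 µM 2 were called, Ak1 at -0.68 ± 0.17 (adjusted p = 0.0239) and Ckb at -0.92 ± 0.26 (adjusted p = 0.041), against 4.76% of rows called lower and 7.01% called. With the replicate block 4 were called, against 16.1% of rows, with Ckm at -0.60 (adjusted p = 0.0512 without the block, 0.00207 with it) and Ckmt2 at -1.99 ± 0.66 (adjusted p = 0.083 and 1.3e-05) added. All 5 interactions were negative, Slc6a8 included at -0.39 (adjusted p = 0.259). Within numbers the Ckmt2 interaction was -2.22, -2.18 and -1.59, that of Ckb -1.34, -0.69 and -0.74, and that of Ak1 -0.67, -0.72 and -0.64. The Ak1 call was lost without replicate 1 or 2 of PE, 1 of PE with 50 µM, 3 of vehicle, or 2 or 3 of 50 µM alone, with adjusted p of 0.0571 to 0.0709. The Ckb call was lost without replicate 1 or 2 of PE, 2 of PE with 10 µM, 1 or 3 of PE with 50 µM, 2 or 3 of vehicle, 2 of 10 µM alone, or 1 or 2 of 50 µM alone, with adjusted p of 0.0501 to 0.11. Ckm gained a call without replicate 1 or 2 of PE with 10 µM, 2 of PE with 50 µM or 1 of 50 µM alone, with adjusted p of 0.0127 to 0.0498. The count ran from 0 to 3 over the 18 omissions, and it was 1 with no filter, at a shared FPKM sum or with only the 4 groups concerned.

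Of the 38 other genes of phosphotransfer that were listed, 32 were in the table and 29 were tested. In PE relative to vehicle 9 were higher and 4 lower, against 30.6% of all rows called (12 and 6 with the block, against 42.2%), with a median log2 difference of 0.08 against -0.01 over all tested rows. At a shared FPKM sum the same comparison gave 5 higher and 18 lower, against 63.5% of rows. At 50 µM Senexin A alone 14 were higher and 11 lower than in vehicle, against 60.7% of rows (9 and 12 at a shared FPKM sum, against 63.4%). At 10 µM 7 were higher and 2 lower, against 16.2% (10 and 4 with the block, against 26.4%, and 5 and 6 at a shared FPKM sum, against 28.9%). Under PE, 10 µM gave 6 higher and 3 lower than PE alone, against 17% of rows (10 and 5 with the block, against 27.9%), and 50 µM gave 10 higher and 11 lower, against 56.7%. Over omissions of a single library the PE comparison ranged from 7 to 11 higher and 1 to 5 lower, 10 µM alone from 4 to 9 and 1 to 3, 10 µM under PE from 3 to 8 and 2 to 4, and the 50 µM comparisons stayed at 10 or more higher and 8 or more lower.

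Creatine synthesis was represented by Gatm, which makes the precursor guanidinoacetate, and Gamt, which methylates it to creatine. Gatm measured 47.9, 71.5 and 69.5 FPKM in PE, 32.8, 48.5 and 50.3 FPKM in PE with 10 µM Senexin A, and 14.7, 22.7 and 21.7 FPKM in PE with 50 µM. It measured 15.8, 21.6 and 23.0 FPKM in vehicle, 9.55, 15.9 and 15.9 FPKM in 10 µM Senexin A, and 3.88, 11.5 and 12.4 FPKM in 50 µM. All PE libraries lay above all vehicle libraries, and within a replicate number Gatm was lower at each higher dose. It rose by 1.59 ± 0.32 in PE relative to vehicle (adjusted p = 0.0016) and fell by 1.63 ± 0.32 with 50 µM Senexin A relative to PE alone (adjusted p = 0.000443). At 10 µM it differed by -0.51 from PE alone and by -0.53 from vehicle, called with the replicate block (adjusted p = 0.0148 and 0.013) and not without it (0.297 and 0.289). Gamt averaged 22.2 FPKM in PE, 24.5 FPKM in PE with 10 µM, 16.8 FPKM in PE with 50 µM, 28.5 FPKM in vehicle, 28.1 FPKM in 10 µM and 20.9 FPKM in 50 µM, and was called lower in PE than in vehicle.

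Ckmt1b, the ubiquitous mitochondrial creatine kinase, was a low-level transcript. It measured 4.28, 2.85 and 4.07 FPKM in PE and 0.810, 0.694 and 0.830 FPKM in PE with 50 µM, against 0.828, 0.436 and 0.742 FPKM in vehicle. The PE libraries stood above the other 2 groups, which overlapped. It rose by 1.50 ± 0.25 in PE relative to vehicle (adjusted p = 0.000345), fell by 1.40 ± 0.25 with 50 µM Senexin A relative to PE alone (adjusted p = 0.000167), and its interaction at 50 µM was -1.73 ± 0.35 (adjusted p = 0.00808). Slc16a12, a second creatine transporter, of the monocarboxylate family, fell with Senexin A at both doses, by 1.60 ± 0.18 at 50 µM relative to vehicle (adjusted p = 1.5e-06), by 1.21 ± 0.18 at 10 µM (adjusted p = 0.000404), and under PE by 0.99 ± 0.18 at 10 µM (adjusted p = 0.00183) and 1.43 ± 0.18 at 50 µM (adjusted p = 6.0e-06). Its levels were 0.745 to 0.995 FPKM in 50 µM Senexin A and 3.99 to 5.65 FPKM in vehicle.

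Adenine nucleotide translocases and VDAC pores pass ATP and ADP across the mitochondrial membranes. Of the 5 measured, 5 were higher at 50 µM than in vehicle, against 30.5% of all rows, and 4 at 10 µM, against 9.17% (4 and 3 at a shared FPKM sum). Relative to PE alone 3 were higher at 50 µM and 3 at 10 µM, against 29.3% and 9.13% of rows, and none was lower in these 4 comparisons. Slc25a5 measured 629, 810 and 712 FPKM in 50 µM Senexin A and 306, 288 and 236 FPKM in vehicle, a rise of 1.37 ± 0.14 (adjusted p = 4.7e-07). Slc25a4, the heart translocase, rose by 0.69 ± 0.14 at 10 µM relative to vehicle (adjusted p = 0.00324). Where the sequences of these paralogs are alike, reads may have been split between them by the counting, and how that was done is not given in the sources used here.

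Among nucleoside diphosphate kinases, which equilibrate ATP with the other nucleoside triphosphates, 4 members were higher and 2 lower at 50 µM Senexin A than in vehicle, where 30.5% of all rows were higher and 30.2% lower. Nme6 measured 46.7, 43.8 and 45.5 FPKM in 50 µM Senexin A and 15.7, 15.4 and 17.4 FPKM in vehicle, a rise of 1.43 ± 0.10 (adjusted p = 9.1e-09), and rose by 1.60 ± 0.10 with 50 µM relative to PE alone. Nme3 measured 7.50, 8.63 and 3.71 FPKM in 50 µM Senexin A and 24.0, 21.8 and 26.1 FPKM in vehicle, so that it fell by 1.78 ± 0.22 (adjusted p = 3.7e-06). It was also lower in PE, at 9.18, 7.92 and 10.4 FPKM (a log2 change of -1.30 ± 0.22, adjusted p = 0.000364). Nme1 rose by 1.05 ± 0.12 in PE with 10 µM relative to 10 µM alone (adjusted p = 1.7e-05), with the caution that it is a close paralog of Nme2. Its means were 107 FPKM in PE and 59.4 FPKM in vehicle. Among cells given 50 µM the PE difference was 0.42 ± 0.12 (adjusted p = 0.0312), a call lost in 6 of 28 alternatives. The γ2 subunit of AMP-activated kinase, Prkag2, which senses the AMP that adenylate kinases release, fell by 1.25 ± 0.14 at 50 µM relative to 10 µM without PE (adjusted p = 3.3e-06) and by 0.96 ± 0.14 with PE (adjusted p = 5.4e-05). Prkag2 averaged 54.3 FPKM in vehicle, 57.9 FPKM in 10 µM and 24.0 FPKM in 50 µM. With PE the means were 49.8 FPKM without Senexin A, 59.2 FPKM with 10 µM and 29.8 FPKM with 50 µM. Interactions at 50 µM were called for 4 of the 29 genes, 1 higher and 3 lower, against 7.01% of all rows (3 and 7 with the block, against 16.1%). Besides Ckmt1b these were Nme3 at 1.12, Prkaa2 at -0.55 and Nme2 at -0.51, which lost their calls in 12, 13 and 2 of 28 alternatives.

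**Figure D5:**
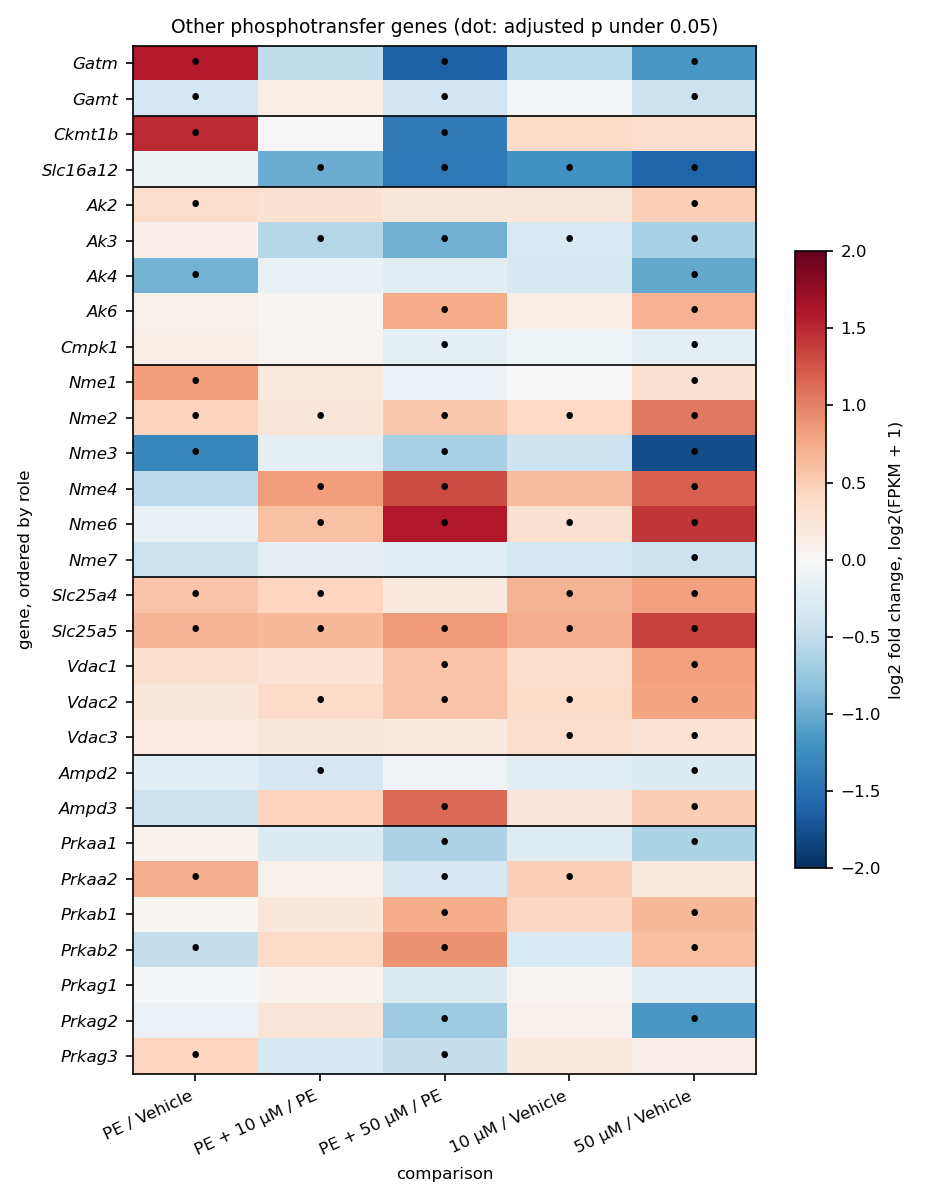
Colour gives the log2 fold change on the log2(FPKM + 1) scale (scale bar from -2 to 2) of the 29 tested phosphotransfer genes (rows, by role: creatine synthesis, other creatine kinase and transport, adenylate kinases, nucleoside diphosphate kinases, nucleotide carriers, AMP deaminases, AMP-activated kinase) in 5 comparisons (columns, first group over second), with a dot at an adjusted p under 0.05. The PE column has 9 higher and 4 lower calls, which become 5 and 18 at a shared FPKM sum, and the last column 14 and 11, which become 9 and 12.

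Markers of other cell types moved with some comparisons, and their part in the results was not tested. In these bulk libraries fewer cells of a type and less RNA per cell cannot be told apart. Of 5 smooth muscle markers 3 were lower in PE with 50 µM Senexin A than in PE alone, where 2874 of all 10478 tested rows were lower. Likewise 3 were lower in 50 µM alone than in vehicle, where 3169 rows were lower. Their sums were 1810 to 1969 FPKM in PE with 50 µM and 3796 to 5708 FPKM in PE. The second pair stood at 1790 to 2803 FPKM in 50 µM alone and 4516 to 6113 FPKM in vehicle. Ckb was lower in the first pair and not called in the second. In PE relative to vehicle, where Ckb was higher, 1 of the 5 smooth muscle markers was called higher and none lower, against 17.9% of rows called higher. Fibroblast markers summed to 1189 to 1961 FPKM in PE and 1781 to 3086 FPKM in vehicle. Of the 9, 8 were tested and none was called in that comparison, against 30.6% of rows. Col1a2 was at the floor of 0.01 FPKM in 15 libraries. With 50 µM, 3 of those 8 were lower than in PE alone and 3 lower than in vehicle, against 2874 and 3169 rows.

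Markers of nervous tissue and skeletal muscle were low. For nervous tissue, where Ckb is abundant, as it also is in smooth muscle, the 8 markers summed to 9.10 to 22.8 FPKM, and Snap25 stood at the floor in 11 libraries. Tubb3, at 1.83 to 15.2 FPKM, and S100b, at 3.05 to 6.36 FPKM, were above the floor in every library. The sum was 14.1 to 19.7 FPKM in PE and 18.6 to 22.8 FPKM in vehicle. Of the 3 nervous tissue markers tested, 1 was lower in PE than in vehicle and none higher, where 1331 of all 10478 tested rows were lower. For skeletal muscle, rich in Ckm and Ak1, the 7 markers summed to 0.415 to 3.46 FPKM, with Myod1, Myog, Myh4 and Tnni2 at the floor in 14, 15, 11 and 17 libraries. Endothelial sums were 0.967 to 6.79 FPKM and macrophage sums 4.90 to 37.5 FPKM.

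Across the 18 libraries the 5 genes did not share a single pattern. Ckm correlated with Ak1 at r = 0.71 and Ckmt2 with Ckb at 0.71, Ckm with Ckmt2 at -0.04 and Ckb with Slc6a8 at -0.39. These are descriptions over libraries that share groups, replicate numbers and scaling. Among 8185 rows averaging at least 5 FPKM, those most like each gene over the 18 libraries were as follows. Ckb was closest to Myl9 (r = 0.960), a smooth and non-muscle myosin light chain, then Sae1, Synm, Preb and Dstn. Ckm was closest to Sh3kbp1 (r = 0.922), then Cited4, Wnk2, Smyd2 and Mospd1. Ckmt2 was closest to Igf1r (r = 0.916), the IGF-1 receptor, then Wfs1, Myl1, Mfap3l and Dysf. Slc6a8 was closest to Parm1 (r = 0.969), then Tmem150a, Sphk2, Wash1 and Gaa. Ak1 was closest to Mdh1 (r = 0.960), cytosolic malate dehydrogenase, then Uqcrfs1, Ogdh and Tnni3. Of these last, Uqcrfs1 belongs to respiratory complex III, and Ogdh is an enzyme of the citric acid cycle.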

How the data were processed

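RNA-seq libraries of 18 rat cardiomyocyte cultures were analysed from 1 table of FPKM per gene and library, as the authors deposited it. Per the submitters' processing notes, reads had been handled with Bowtie2 and Cufflinks on rn5; versions, annotation, strand and filters are not given in the sources used here. Per the labels' protocols, libraries came from polyadenylated RNA with a TruSeq V2 kit. The smallest FPKM value was 0.01, taken as a floor.

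The test was limma 3.58.1 in R 4.3.3, applied to log2(FPKM + 1), with a variance trend, 6 group means in 1 model with 12 residual degrees of freedom, rows of at least 1 FPKM in at least 3 libraries, and Benjamini-Hochberg adjustment over 10478 rows. The median standard error was 0.118 for a comparison of 2 groups and 0.167 for an interaction. The step was tested on simulated data with independent noise in each library. That setting held no effect of the replicate number, so it did not cover deviations shared by same-numbered libraries. Groups and replicate numbers came from the labels. Same-numbered libraries deviated together (r = 0.213 to 0.587 over 45 pairs, against -0.462 to 0.0949 over 90 pairs of different numbers), so the numbers pair the libraries, from the data and not from the labels; the block stayed an alternative.

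The named genes were the 5 members, up to 4 called genes per comparison with the largest change among 38 other phosphotransfer genes, and the 5 rows most correlated with each member, of which 1 is not reported here. Members and lists were chosen with earlier results of these data known. Promoter windows came from RefSeq (GRCr8) for 4 of the 5 members. Alternatives were other pseudocounts (0.1 and 0.5), no filter or one of 5 FPKM, quantile, median-ratio and equal-sum scaling, fits of the compared groups alone, the replicate block, each library left out, and, added after seeing the data, the 6 libraries numbered 2 left out together. Figures were drawn with matplotlib 3.10.9.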

Additional observations from a re-analysis of the deposited data

Results flagged for a closer look

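The PE difference among cells given 50 µM Senexin A was tested against the PE difference without Senexin A, and the test of that difference was passed by 2 of the 5 genes. For Ckb it was -0.92 on the log2 scale (adjusted p = 0.041): the PE difference was 0.23 at 50 µM and 1.15 without Senexin A. For Ak1 it was -0.68 (adjusted p = 0.0239): the PE difference was -0.16 at 50 µM and 0.52 without Senexin A. Both genes were below zero in 3 of 3 replicate numbers. The call for Ckb was lost in 10 of the 18 omissions of a single library (adjusted p up to 0.11) and that for Ak1 in 6 (adjusted p up to 0.0709). Both calls were lost without the libraries numbered 2, with adjusted p of 0.185 for Ckb and 0.129 for Ak1. Ckb also lost its call with no filter (0.0696), at a shared FPKM sum (0.0579) and with only the compared groups fitted (0.0636).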

How the results depend on the processing

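Of 1540 values of single genes under alternatives, 1407 kept their direction and side of the threshold, 71 lost a call, 43 gained one and 19 changed sign; no value called as reported changed sign, and the cause was not tested. Ckm in PE relative to vehicle turned to -0.24 under quantile normalization and -0.35 at a shared FPKM sum (adjusted p = 0.00659), and Ak1 from 10 to 50 µM without PE to -0.089 and -0.074. Without the libraries numbered 2, Slc6a8 in PE with 10 µM relative to 10 µM alone turned to 0.060. Over the omissions of a single library the ranges that crossed zero were -0.12 to 0.048 for Ak1 in PE with 50 µM relative to PE, -0.16 to 0.15 for Ckb in 50 µM relative to vehicle, -0.27 to 0.0074 for Slc6a8 in PE with 10 µM relative to 10 µM, -0.095 to 0.67 for Ckmt2 in PE with 50 µM relative to 50 µM, -0.048 to 0.73 and -0.051 to 0.17 for Ckmt2 and Ak1 from 10 to 50 µM, and -0.15 to 0.13 for the Slc6a8 interaction at 10 µM.

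The number of the 5 genes called was 3 in PE relative to vehicle under every alternative but a shared FPKM sum, where it was 4. Those 4 were a different set: Ckmt2 and Ckb were higher, Ckm (-0.35) and Slc6a8 (-0.51) were lower, and Ak1 was not called. With 10 µM relative to PE it was 4, but 3 with no filter, under each of the 3 other scalings and with the compared groups alone, 2 to 4 over single omissions and 1 without the libraries numbered 2. For 10 µM relative to vehicle it was 2, but 3 with a filter of 5 FPKM, 4 with the compared groups alone, 5 with the replicate block, 1 without the libraries numbered 2 and 2 to 4 over omissions. For PE with 50 µM relative to 50 µM it was 2, but 0 with the compared groups alone, 1 without the libraries numbered 2 and 1 to 2 over omissions. From 10 to 50 µM without PE it was 2, but 3 under quantile normalization or a shared sum, 4 with the block, 1 without the libraries numbered 2 and 1 to 2 over omissions. The interaction at 50 µM gave 2, but 1 with no filter, at a shared sum, with the compared groups or without the libraries numbered 2, 3 with a filter of 5 FPKM or median-ratio scaling, 4 with the block, and 0 to 3 over omissions. Without the libraries numbered 2 the 1 gene was Ckmt2 (adjusted p = 0.0491). The replicate block changed no other call than those named. A shared FPKM sum moved the median of all rows by -0.37 in PE relative to vehicle. There 617 rows were called higher and 6048 lower, against 1874 and 1331 as deposited. The standard error of Ckmt2 was 0.47 without the block and 0.129 with it.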
